A study of Homo sapiens with 15 samples.

Results

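Lipid droplets are the cell's store of neutral lipid. Fatty acids are activated to acyl-CoA, built into triacylglycerol at the endoplasmic reticulum and packed into droplets that carry a coat of perilipins, and lipolysis releases them again for oxidation in mitochondria. Fibroblasts and tumour cells both keep such droplets, and the droplet coat and its inhibitors of lipolysis are known to respond to fatty acid load and to low oxygen. The genes described here are 10 genes of this cycle, chosen by name: the lipolysis inhibitor HILPDA, the droplet coat genes PLIN2 and PLIN3, the triacylglycerol lipase PNPLA2 (ATGL) and its activator ABHD5, the fatty acid binding protein gene FABP3, the mitochondrial carnitine transferase CPT1A, the acyl-CoA synthetase ACSL3, the acyltransferase DGAT1 and the phosphatidate phosphatase LPIN1. They are 10 of the 17138 genes listed in the MRC5 or the H196 table, and both tables list all 10. The choice was made with earlier results of these data known.

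The study asked how cancer-associated fibroblasts and small cell lung cancer (SCLC) cells act on each other. MRC5, a human lung fibroblast line, was grown alone (MRC5_Mo), with cells of the neuroendocrine SCLC line H69 (MRC5_coH69) or with cells of the non-neuroendocrine SCLC line H196 (MRC5_coH196), and H196 was grown alone (H196_Mo) or with MRC5 (H196_Co), each for a week and with the partners parted by the membrane of a transwell insert. No group carried a transgene or a drug, all groups were RNA-seq of poly(A) RNA, and each of the 5 groups had 3 libraries, 15 in all. Each line and each partner is represented by cells of a single line, and the methods call the 3 libraries of a group parallel replicates without saying whether each came from its own culture, so the p-values measure the spread between these libraries, which may be technical.

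Library totals ranged from 16073597 to 19170560 counts. Of 12 fibroblast markers, 12 had at least 1 FPKM (fragments per kilobase of gene, scaled to the library total) in every MRC5 library, against 2 in the H196 groups, where COL1A2 was at 0 in every H196_Mo library. The summed fibroblast markers were 6041 to 6697 FPKM in MRC5_Mo, 6891 to 7067 in MRC5_coH69 and 3576 to 3737 in MRC5_coH196. Of 10 neuroendocrine markers, 9 were listed for H196 and 5 of them reached 1 FPKM in every library, with NCAM1 at 0 in H196_Mo. The sums of this list were close in the lines, at 620 to 667 FPKM in H196_Mo and 552 to 568 in MRC5_Mo, where 1 marker reached 1 FPKM. Of 8 epithelial markers, 2 reached 1 FPKM in every library of H196_Mo and of H196_Co. In MRC5_Mo 4 did, and in MRC5_coH69 and MRC5_coH196 5 did. Of 8 adipocyte markers, 7 were listed for MRC5, and 2 reached 1 FPKM in every library of MRC5_Mo and of MRC5_coH196. The listed ones summed to 6.47 to 6.81 FPKM in MRC5_Mo and 7.17 to 8.05 in MRC5_coH196, and LEP, PLIN1 and LPL were at 0 in every MRC5_Mo library. For H196 6 were listed and 1 reached 1 FPKM in every library, with sums of 9.26 to 13.22 FPKM in H196_Mo and 12.35 to 15.5 in H196_Co. RNA of the partner was low. Summed over 99 genes of H196 that MRC5 lacks, MRC5_coH196 libraries held 23.9 to 62.4 CPM (counts scaled to a common library total), against 9.49 to 10.4 in MRC5_Mo, which is at most 0.777% of the level in H196_Mo itself.

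Promoters of the 2 perilipin genes and of PNPLA2 are shown here because PLIN2 was called in MRC5_coH196 and PLIN3 and PNPLA2 were not. RefSeq (GRCh38.p14) gave a promoter window for 8 of the 10 genes (not HILPDA and DGAT1), from 250 bases before to 50 bases after the start site, all on the strand of the gene, and that of PLIN2 lies inside the span the tables give for the gene. Capitals mark ACGTG and GCGTG on either strand, the core letters bound by hypoxia-inducible factors, and a CACGTG holds ACGTG on both strands and so counts as 2 overlapping matches.
PLIN2 (chr9:19127443-19127742, minus strand): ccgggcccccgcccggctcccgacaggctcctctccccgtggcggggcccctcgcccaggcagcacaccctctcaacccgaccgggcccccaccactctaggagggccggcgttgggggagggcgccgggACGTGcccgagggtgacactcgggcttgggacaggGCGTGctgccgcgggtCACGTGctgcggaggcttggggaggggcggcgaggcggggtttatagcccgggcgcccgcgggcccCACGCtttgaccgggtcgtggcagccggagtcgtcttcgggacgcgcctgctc
PLIN3 (chr19:4867618-4867917, minus strand): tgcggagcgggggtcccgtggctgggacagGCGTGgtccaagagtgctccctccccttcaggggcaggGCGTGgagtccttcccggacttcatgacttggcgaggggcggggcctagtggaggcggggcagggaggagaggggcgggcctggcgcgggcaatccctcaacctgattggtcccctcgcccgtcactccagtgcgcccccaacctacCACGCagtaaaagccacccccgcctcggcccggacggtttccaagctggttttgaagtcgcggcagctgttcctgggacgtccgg
PNPLA2 (chr11:818664-818963, plus strand): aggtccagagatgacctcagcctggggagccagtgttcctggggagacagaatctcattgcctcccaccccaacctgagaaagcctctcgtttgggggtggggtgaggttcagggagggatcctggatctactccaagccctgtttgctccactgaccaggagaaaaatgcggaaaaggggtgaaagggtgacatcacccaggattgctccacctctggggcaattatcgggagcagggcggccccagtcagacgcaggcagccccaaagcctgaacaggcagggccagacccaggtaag
The PLIN2 window held 3 matches to ACGTG and 2 to GCGTG, the PLIN3 window 0 and 3, and the PNPLA2 window 0 and 0. Of 35116 RefSeq windows of the same 300-base length, 48.4% held ACGTG or GCGTG, 7.26% held CACGTG, and 1.98% held as many matches as that of PLIN2 or more. The window of FABP3, which was not called in MRC5_coH196, held 1 match to ACGTG and 2 to GCGTG. At least 1 match was also present in a window of CPT1A, ACSL3, ABHD5 and LPIN1. No member window held the PPAR response element searched, an exact direct repeat of AGGTCA with 1 base between on either strand, which 0.0228% of all windows held. These matches describe letters in the windows and not bound sites. The windows shown were picked by the calls of their genes, so their counts of matches test nothing.

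HILPDA encodes a small droplet protein that inhibits the lipase ATGL and is known as a hypoxia-induced gene (gene ID 29923, chr7:128455878-128458418, GRCh38.p13, as are the gene positions that follow). In MRC5_Mo it measured 7.16, 7.32 and 6.62 FPKM, in MRC5_coH69 6.96, 7.22 and 8.49 FPKM, and in MRC5_coH196 147.08, 148.47 and 171.57 FPKM. All 3 MRC5_coH196 libraries thus lay far above the other 6 MRC5 libraries, while MRC5_coH69 and MRC5_Mo overlapped (log2 fold change 0.12, 95% interval -0.13 to 0.36, edgeR adjusted p = 0.649). In H196_Mo it measured 20.18, 18.61 and 16.63 FPKM and in H196_Co 107.04, 96.78 and 87.67 FPKM, again without overlap. The order of the means was MRC5_coH196 at 156 FPKM, H196_Co at 97.2, H196_Mo at 18.5, MRC5_coH69 at 7.56 and MRC5_Mo at 7.03, over tables that the authors normalized separately. HILPDA rose 25.0-fold in MRC5_coH196 against MRC5_Mo (log2 fold change 4.65, SE 0.08, edgeR adjusted p = 6.93e-25) and 5.59-fold in H196_Co against H196_Mo (log2 fold change 2.48, SE 0.09, edgeR adjusted p = 7.69e-14). These were the 32nd largest of 12819 log2 fold changes in MRC5 and the 4th largest of 12806 in H196, counted from the highest. By mean FPKM, HILPDA moved from the 9th to the 2nd place among the 10 members in MRC5 with H196, and from the 7th to the 2nd in H196 with MRC5. Against MRC5_coH69 the rise in MRC5_coH196 was 23.1-fold. If MRC5_coH196 libraries held H196_Co RNA at the 0.777% given above, that would be 0.837 CPM of HILPDA, against 170 to 201 CPM measured there. The summed fibroblast markers were lower in the same MRC5_coH196 libraries, as given above, and their part in the result was not tested. MRC5 was a single line parted from H196 by a membrane, with partner RNA at most at the 0.777% given above. Bulk RNA does not show whether all MRC5 cells or a part of them held less marker RNA.

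PLIN2 (adipophilin) is the droplet coat protein of most cells outside fat tissue, and its protein is stabilised by droplets (gene ID 123, chr9:19106078-19139255). MRC5_Mo libraries had 58.60, 62.62 and 64.79 FPKM of PLIN2, MRC5_coH69 libraries 61.88, 63.12 and 56.93 FPKM, and MRC5_coH196 libraries 550.17, 554.04 and 582.18 FPKM. The MRC5_coH196 libraries stood apart and the other MRC5 groups overlapped, with a log2 fold change of -0.03 between MRC5_coH69 and MRC5_Mo (95% interval -0.14 to 0.08, edgeR adjusted p = 0.825). PLIN2 rose 10.3-fold in MRC5_coH196 against MRC5_Mo (log2 fold change 3.37, SE 0.05, edgeR adjusted p = 1.28e-25), and its mean of 562 ± 17.5 FPKM (SD, n = 3) was above that of all but 152 of the 16382 genes in the MRC5 table. In H196 the values were 25.72, 27.06 and 26.49 FPKM alone and 34.17, 31.92 and 32.20 FPKM with MRC5. The H196 groups did not overlap either, but the difference was 1.32-fold (log2 fold change 0.40, SE 0.08, edgeR adjusted p = 0.000963), under the limit of 0.58 that the study set for a differentially expressed gene and that is used with an adjusted p under 0.05 for a call here.

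PLIN3 (TIP47, gene ID 10226, chr19:4835009-4867667) coats small and nascent droplets and was the highest member in 4 of the 5 groups. It measured 168.48, 171.46 and 172.47 FPKM in MRC5_Mo, 162.29, 169.05 and 155.23 FPKM in MRC5_coH69 and 146.97, 145.50 and 143.36 FPKM in MRC5_coH196, whose libraries were the lowest of the 9. In H196 it measured 118.25, 131.90 and 130.53 FPKM alone and 128.50, 122.15 and 124.83 FPKM with MRC5, which overlapped. On counts scaled by TMM, the trimmed mean of M-values, the log2 fold change was -0.06 in MRC5_coH196 (95% interval -0.15 to 0.03, edgeR adjusted p = 0.198) and 0.06 in H196_Co (95% interval -0.09 to 0.21, edgeR adjusted p = 0.615). FPKM divides by the library total alone, and on log2(FPKM + 1) the median of all genes lay -0.13 lower in MRC5_coH196 than in MRC5_Mo. On that scale PLIN3 differed by -0.23 (limma adjusted p = 0.000116), and PNPLA2 by -0.16.

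**Figure D1:**
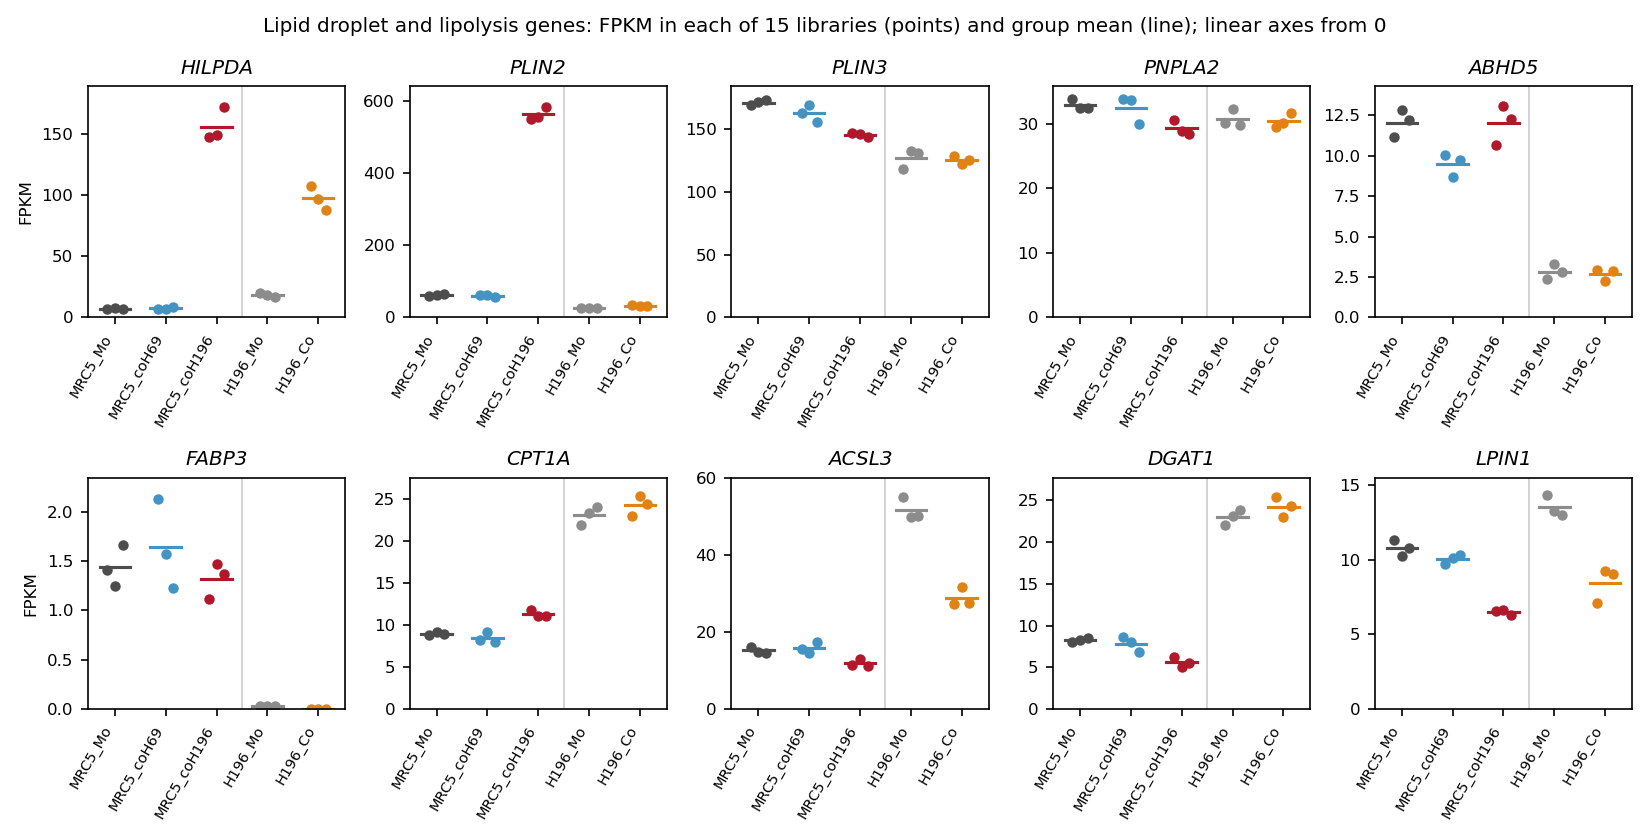
FPKM of the 10 members in each library (points, 3 per group) with the group mean (line), on linear axes that start at 0 and differ between panels; the grey line parts the MRC5 groups from the H196 groups. HILPDA stands at 147 to 172 FPKM in MRC5_coH196 and 87.7 to 107 in H196_Co, PLIN2 at 550 to 582 FPKM in MRC5_coH196 alone, and FABP3 is at 0.03 or 0 FPKM in H196.

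PNPLA2 (ATGL, gene ID 57104, chr11:818914-832884) cuts the first fatty acid from triacylglycerol, and ABHD5 (CGI-58, gene ID 51099, chr3:43690113-43734371) activates it at the droplet. PNPLA2 had 33.83, 32.38 and 32.34 FPKM in MRC5_Mo, 33.84, 33.63 and 29.88 in MRC5_coH69 and 30.53, 28.81 and 28.39 in MRC5_coH196. In H196 it had 30.09, 32.25 and 29.71 FPKM alone and 29.42, 30.08 and 31.60 with MRC5. Mean PNPLA2 levels thus lay between 29.2 and 32.9 FPKM in all 5 groups. Scaled by TMM it stood at 67.2 ± 1.84 CPM in MRC5_Mo and 67.4 ± 3.11 CPM in MRC5_coH196 (SD, n = 3). No comparison passed the test: the log2 fold change was 0.01 in MRC5_coH196 (95% interval -0.11 to 0.12, edgeR adjusted p = 0.936), -0.01 in MRC5_coH69 (edgeR adjusted p = 0.965) and 0.06 in H196_Co (95% interval -0.09 to 0.21, edgeR adjusted p = 0.583). On log2(FPKM + 1), where all genes shifted as given above, the value of -0.16 in MRC5_coH196 did pass at a limma adjusted p of 0.0137.

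ABHD5 measured 11.14, 12.85 and 12.20 FPKM in MRC5_Mo, 10.03, 8.70 and 9.72 in MRC5_coH69 and 10.69, 13.10 and 12.26 in MRC5_coH196. In H196 it was lower, at 2.41, 3.28 and 2.81 FPKM alone and 2.94, 2.27 and 2.89 with MRC5. Its log2 fold change in MRC5_coH196 was 0.19 (SE 0.08, edgeR adjusted p = 0.0401), with FPKM that overlapped between the groups. That adjusted p did not hold without MRC5_Mo replicate 1 (0.159) or 3 (0.0707), without MRC5_coH196 replicate 2 (0.182) or 3 (0.215), or in DESeq2 (0.0626), and on log2(FPKM + 1) the value was -0.01. In MRC5_coH69 all 3 libraries lay below those of MRC5_Mo, with a log2 fold change of -0.20 and an edgeR adjusted p of 0.165. Between the co-cultures, MRC5_coH196 against MRC5_coH69, the log2 fold change of ABHD5 was 0.40 (SE 0.09, edgeR adjusted p = 0.000196), under the limit of 0.58.

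RNA of the inhibitor gene HILPDA was set against that of the lipase gene PNPLA2 within each library. G0S2, another inhibitor of ATGL, is not part of this ratio. It stood at 121 FPKM in H196_Mo and 166 in H196_Co, above both HILPDA and PNPLA2 there, and at 9.09 in MRC5_Mo and 10.6 in MRC5_coH196. The ratio is thus not a balance of all inhibitors to the lipase. The ratio of HILPDA to PNPLA2, both in FPKM and so per length, was 0.214 in MRC5_Mo, 0.232 in MRC5_coH69, 5.31 in MRC5_coH196, 0.601 in H196_Mo and 3.19 in H196_Co (geometric means, n = 3). In log2 it was -2.22 ± 0.0729 in MRC5_Mo and 2.41 ± 0.168 in MRC5_coH196 (SD, n = 3), a difference of 4.63, and it differed by 2.41 between H196_Co and H196_Mo. Both have an exact two-sided permutation p of 0.1, the smallest that 3 libraries against 3 can give, and the libraries did not overlap. MRC5_coH69 differed from MRC5_Mo by 0.12 with overlap (exact two-sided permutation p = 0.6). Of the coat genes, PLIN2 made up 26.6% ± 0.759 of the summed PLIN2 and PLIN3 FPKM in MRC5_Mo, 27.2% ± 0.386 in MRC5_coH69 and 79.5% ± 0.697 in MRC5_coH196 (SD, n = 3). In H196 that share was 17.3% ± 0.535 alone and 20.7% ± 0.251 with MRC5. The log2 ratio of PLIN2 to PLIN3 differed by 3.41 between MRC5_coH196 and MRC5_Mo and by 0.33 between H196_Co and H196_Mo, each without overlap and at the exact permutation p of 0.1. PNPLA2 and PLIN3, the lower terms of these ratios, differed by the small amounts given above.

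**Figure D2:**
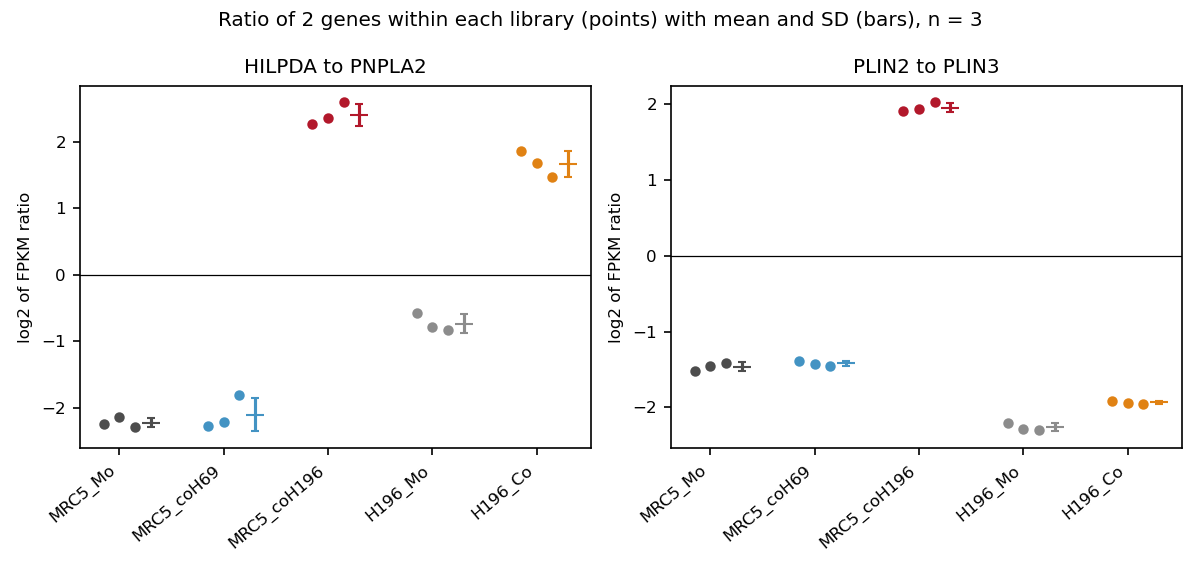
Log2 of the FPKM ratio of 2 genes within each library (points) with the mean and SD of 3 libraries (bars), for HILPDA to PNPLA2 and for PLIN2 to PLIN3. The first ratio is above 0 in MRC5_coH196 and H196_Co and below 0 in the other 3 groups, and the second is above 0 in MRC5_coH196, at 1.95 ± 0.0619, and below 0 elsewhere.

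Among the genes of synthesis, ACSL3 (gene ID 2181, chr2:222861036-222944639) activates fatty acids on nascent droplets, LPIN1 (gene ID 23175, chr2:11673711-12227410) makes diacylglycerol and also acts in the nucleus, and DGAT1 (gene ID 8694) adds the last fatty acid of triacylglycerol. ACSL3 was higher in H196 than in MRC5 when each was grown alone, with the tables normalized separately by the authors: 55.17, 49.89 and 50.23 FPKM in H196_Mo against 16.12, 14.85 and 14.68 in MRC5_Mo. With MRC5, H196 had 27.30, 31.61 and 27.69 FPKM of ACSL3, all below H196_Mo. It fell by 0.77 on the log2 scale in H196_Co (SE 0.07, edgeR adjusted p = 1.63e-07), which is 1.70-fold lower. MRC5_coH69 had 15.56, 14.55 and 17.44 FPKM, overlapping MRC5_Mo, and MRC5_coH196 had 11.45, 12.88 and 11.27 FPKM, all below it, with a log2 fold change of -0.19 (SE 0.06, edgeR adjusted p = 0.00551) that did not reach the limit.

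LPIN1 was lower in MRC5 grown with H196 and in H196 grown with MRC5. It measured 11.36, 10.28 and 10.78 FPKM in MRC5_Mo, 9.71, 10.13 and 10.33 in MRC5_coH69 and 6.55, 6.65 and 6.33 in MRC5_coH196. In H196 it measured 14.38, 13.30 and 13.02 FPKM alone and 7.10, 9.22 and 9.06 with MRC5. The log2 fold changes were close: -0.57 in MRC5_coH196 (SE 0.05, edgeR adjusted p = 1.2e-09) and -0.58 in H196_Co (SE 0.08, edgeR adjusted p = 3.31e-05), of which the limit of 0.58 called the second and not the first. The call in H196 was lost without H196_Co replicate 1 (-0.51) or H196_Mo replicate 1 (-0.55), and a call was made in MRC5 without MRC5_Mo replicate 2 (-0.61) or MRC5_coH196 replicate 1 (-0.59).

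DGAT1 measured 8.08, 8.22 and 8.53 FPKM in MRC5_Mo, 8.60, 7.98 and 6.80 in MRC5_coH69 and 6.25, 5.05 and 5.46 in MRC5_coH196. H196 had 22.11, 23.11 and 23.81 FPKM alone and 25.41, 22.99 and 24.33 with MRC5. The MRC5_coH196 libraries were the lowest, at a log2 fold change of -0.39 (SE 0.08, edgeR adjusted p = 0.000185), and H196_Co differed by 0.19 (SE 0.07, edgeR adjusted p = 0.0701) with overlap. The tables list DGAT1 on several contigs, so its reads may have been shared between copies of the same locus.

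CPT1A (gene ID 1374, chr11:68754620-68844410), which admits fatty acids to mitochondria, had 8.83, 9.16 and 8.87 FPKM in MRC5_Mo, 8.27, 9.20 and 7.98 in MRC5_coH69 and 11.80, 11.12 and 11.05 in MRC5_coH196. H196 had 21.97, 23.29 and 24.03 FPKM alone and 22.99, 25.39 and 24.43 with MRC5. The MRC5_coH196 libraries lay above the other MRC5 libraries, and the log2 fold change was 0.51 (SE 0.05, edgeR adjusted p = 5.67e-09) against MRC5_Mo and 0.57 (SE 0.05, edgeR adjusted p = 1.11e-09) against MRC5_coH69, both under the limit. In H196_Co it was 0.14 (95% interval -0.01 to 0.29, edgeR adjusted p = 0.178). FABP3 (gene ID 2170, chr1:31359595-31373618), a carrier of fatty acids best known from heart muscle, was low, at 1.41, 1.25 and 1.66 FPKM in MRC5_Mo, 2.13, 1.57 and 1.23 in MRC5_coH69 and 1.12, 1.47 and 1.37 in MRC5_coH196. These overlapped, and MRC5_coH196 differed from MRC5_Mo by 0.12 on the log2 scale (95% interval -0.41 to 0.64, edgeR adjusted p = 0.690). In H196 FABP3 had at most 1 count in a library, listed as 0.03 FPKM in each H196_Mo library and 0 in each H196_Co library. It was not tested there, and a count of 0 allows up to 3 counts at this depth.

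Counted together, 2 of the 10 members were called in MRC5_coH196 against MRC5_Mo, HILPDA and PLIN2, where 31.9% of all 12819 genes were called. Taking the adjusted p alone, 4 were higher (37.2% of all genes) and 3 lower (37.1%), 7 in all (74.3%), and the FPKM of 8 did not overlap between the groups, against 75.9% of all genes. The members thus did not pass more often than genes at large, and their median log2 fold change was 0.06 against -0.003 over all genes. In MRC5_coH196 against MRC5_coH69 the same 2 genes were called, HILPDA and PLIN2, with 28.2% of all genes called. By the adjusted p alone 7 passed (72.3% of all genes), and 8 did not overlap (74% of all genes). In MRC5_coH69 against MRC5_Mo 0 of 10 were called, where 0.554% of all genes were, 0 passed the adjusted p in edgeR (6.7% of all genes) and 1 did not overlap (24.3%). There, 1 member (ABHD5) had an unadjusted p under 0.05 in edgeR, and DESeq2 and limma called 0 as well. In H196_Co against H196_Mo 3 of the 9 tested members were called, HILPDA higher and ACSL3 and LPIN1 lower, where 3.86% of the 12806 genes were called, 3.26% higher and 0.601% lower. With PLIN2, 4 passed the adjusted p (19.8% of all genes), and the same 4 did not overlap (40.3%). All comparisons of the MRC5 groups with MRC5_Mo share its 3 libraries.

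**Figure D3:**
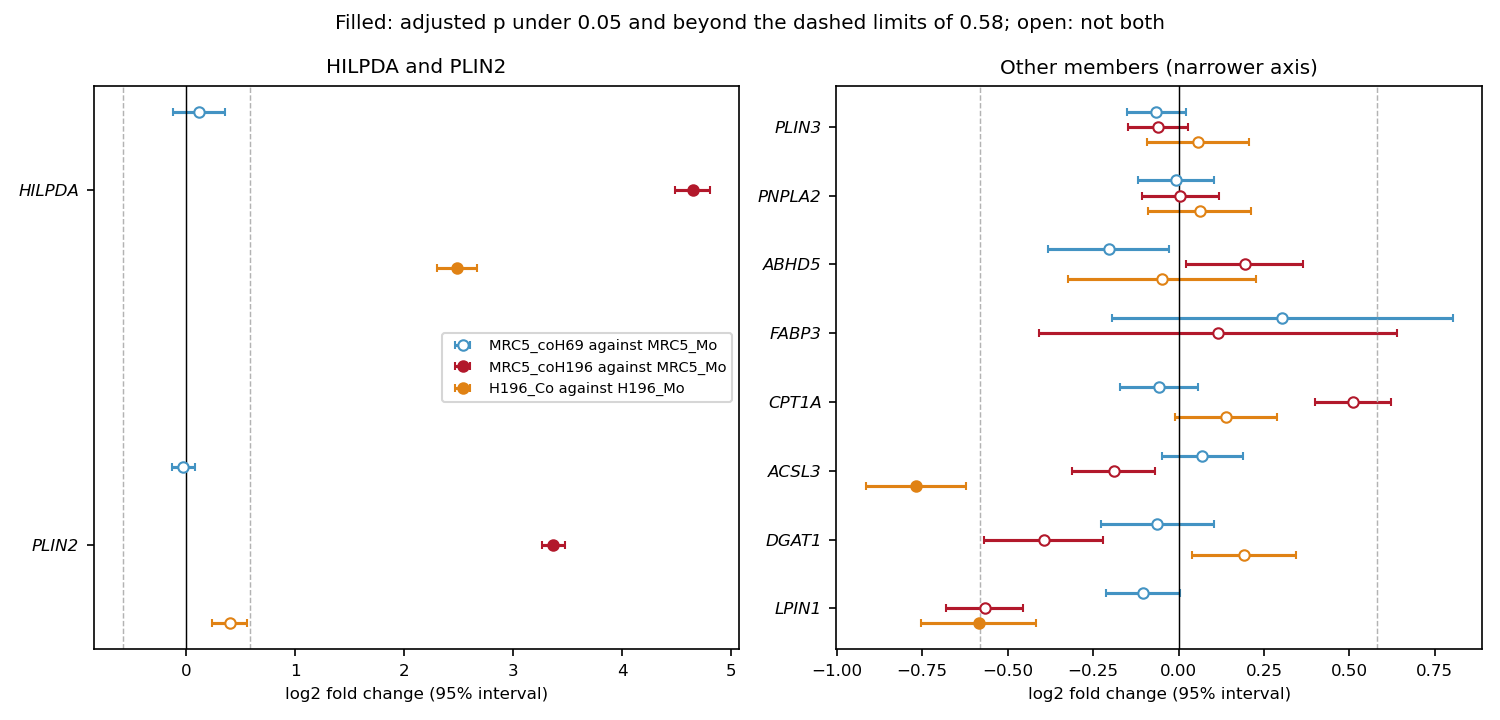
Log2 fold change of each member with its 95% interval (bars) from edgeR, in 3 comparisons given by colour, with HILPDA and PLIN2 on a wider axis than the other 8 genes. Filled points are called (adjusted p under 0.05 and beyond the dashed limits of 0.58): HILPDA and PLIN2 in MRC5_coH196, and HILPDA, ACSL3 and LPIN1 in H196_Co.

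Whether the fibroblasts and the tumour cells answered each other to the same degree was tested as the difference between the log2 fold change in MRC5_coH196 and that in H196_Co, in a single edgeR model over all 15 libraries. 3 of 10 members were called, where 24.7% of 13585 genes were. PLIN2 responded more in MRC5, by 2.94 on the log2 scale (SE 0.09, edgeR adjusted p = 7.96e-20), and so did HILPDA, by 2.14 (SE 0.13, edgeR adjusted p = 2.51e-13). DGAT1 differed by -0.61 (SE 0.11, edgeR adjusted p = 2.56e-05), with the fold change below the limit in each line alone (-0.39 and 0.19), and this call of the difference was lost without MRC5_coH196 replicate 2 (-0.51) or replicate 3 (-0.53). CPT1A, at 0.34, and ACSL3, at 0.55, passed the adjusted p (0.00106 and 1.14e-05 in edgeR) but not the limit, which ACSL3 did pass without H196_Co replicate 2 (0.62), MRC5_Mo replicate 1 (0.60), MRC5_coH196 replicate 1 (0.63) or replicate 3 (0.64), so that 5 members passed the adjusted p alone, against 51.2% of all genes. For LPIN1 the difference was -0.01 (95% interval -0.21 to 0.19, edgeR adjusted p = 0.944). For PLIN3, PNPLA2 and ABHD5 the 95% intervals also held 0. The value for FABP3 was 3.08 (95% interval 0.15 to 6.02, edgeR adjusted p = 0.0765), but it rests on 0 or 1 count in each H196 library.

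The remaining genes of the cycle were grouped in 7 lists, of which 100 genes were tested in MRC5 and 99 in H196. By the adjusted p alone, the background for the count of each list was 37.2% of all genes higher and 37.1% lower in MRC5_coH196. In H196_Co it was 19.8% either way. In MRC5_coH69, 0 of the 100 were called by edgeR, DESeq2 or limma (0.554% of all genes in edgeR). There, 15 had an unadjusted edgeR p under 0.05 and 6 passed the adjusted p (6.7% of all genes). Of the 6, LDAF1 alone was higher, at a log2 fold change of 0.27, and the rest were lower, FASN among them at -0.19. In MRC5_coH196 29 of the 100 were called, near the 31.9% of all genes (17.2% called higher and 14.7% called lower, the background for the count of each list), and in H196_Co 8 of 99 (3.86% of all genes, 3.26% higher and 0.601% lower). The other droplet coat and assembly genes gave 1 rise and 2 falls among 12 tested in MRC5_coH196. LDAF1, the partner of seipin at sites where droplets form, rose from 19.1 ± 0.962 to 35.3 ± 1.45 FPKM (SD, n = 3, log2 fold change 1.07, edgeR adjusted p = 2.11e-14), and METTL7A fell by 1.26 on the log2 scale from 2.56 FPKM. The other perilipins were near 0: PLIN1 averaged 0 FPKM in MRC5_Mo and 0.0267 in MRC5_coH196, PLIN4 0.0567 in both, and PLIN5 0 and 0.00667. In H196 0 of 11 genes of that list were called by edgeR, with 2 past the adjusted p, both lower.

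Of 12 other lipolysis genes tested in MRC5_coH196, 2 rose and 1 fell by the call rule, and 6 and 2 passed the adjusted p. The phospholipase gene DDHD2 rose by 0.80 on the log2 scale and the hormone-sensitive lipase gene LIPE fell by 0.70, from 1.56 to 0.860 FPKM. MGLL, whose enzyme cleaves monoacylglycerol, stood at 43.9 FPKM in MRC5_Mo and 56.6 FPKM in MRC5_coH196 (log2 fold change 0.55, edgeR adjusted p = 3.08e-11), under the limit, and was called against MRC5_coH69 (0.72, edgeR adjusted p = 2.36e-13). G0S2, another inhibitor of ATGL, stood at 9.09 FPKM in MRC5_Mo and 10.6 FPKM in MRC5_coH196 (log2 fold change 0.39, edgeR adjusted p = 0.0167), also under the limit, and was called against MRC5_coH69 (0.75, edgeR adjusted p = 9.39e-05). G0S2 was higher in H196, at 121 FPKM alone and 166 with MRC5 (log2 fold change 0.55, edgeR adjusted p = 8.3e-05), again under the limit. Among glycerolipid synthesis genes in MRC5_coH196, AGPAT5 (1.20) and LPIN3 (0.86) rose and GPAM (-0.61) and GPAT3 (-0.60) fell on the log2 scale, 2 of 14 each way. DGAT2 was at 0.963 FPKM in MRC5_Mo and 1.11 in MRC5_coH196, and at 13.8 and 13.1 FPKM in the H196 groups, with no called change.

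The genes of fatty acid uptake moved both ways in MRC5_coH196, 4 called higher and 5 lower of 14. VLDLR, a receptor for triacylglycerol-rich lipoproteins, rose from 1.22 ± 0.150 to 6.36 ± 0.342 FPKM (SD, n = 3, log2 fold change 2.55, edgeR adjusted p = 6.37e-20) and the fatty acid transporter SLC27A1 rose by 1.35. SLC27A4, of the same transporter family, fell by 1.49 on the log2 scale. VLDLR was the called gene of this list in H196_Co, at 1.89 to 2.21 FPKM alone and 3.51 to 3.96 FPKM with MRC5 (log2 fold change 0.90, edgeR adjusted p = 3.5e-07). Of 19 oxidation genes in MRC5_coH196, 1 was called, CPT1B, the muscle form of the CPT1 enzyme, which rose by 2.01 from a mean of 0.820 to 2.93 FPKM. In H196_Co 0 of 18 oxidation genes were called by edgeR, with 1 higher and 1 lower by adjusted p.

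The list of fatty acid synthesis and desaturation had a median below 0 in both lines. In MRC5_coH196 0 of 15 genes were called higher and 5 lower, 12 were lower and 2 higher by adjusted p, and the median log2 fold change was -0.40 against -0.003 over all genes. FASN, fatty acid synthase, fell by 1.19 and the desaturase gene FADS2 by 1.07 on the log2 scale. In H196_Co 0 of 17 were called higher and 4 lower, with a median of -0.22 against -0.0015 over all genes. SREBF1, whose product drives the genes of lipid synthesis, fell there by 1.15, and the stearoyl-CoA desaturase gene SCD by 0.85, while SCD in MRC5_coH196 differed by 0.42 (edgeR adjusted p = 3.04e-07), under the limit. A list of nuclear receptors and other regulators, with ANGPTL4, PDK4 and the oxygen-response factors HIF1A and EPAS1, gave 4 called rises and 0 falls of 14 in MRC5_coH196 (ANGPTL4, PDK4, PPARA and RXRA) and 2 and 0 of 14 in H196_Co (ANGPTL4 and EPAS1, the latter at 0.200 and 0.393 FPKM). ANGPTL4, an inhibitor of lipoprotein lipase, rose from 8.26 to 218 FPKM in MRC5_coH196 (log2 fold change 4.90, SE 0.09, edgeR adjusted p = 1.47e-23) and from 32.9 to 121 FPKM in H196_Co (log2 fold change 1.97, SE 0.08, edgeR adjusted p = 5.66e-13). PPARA rose by 0.87 in MRC5_coH196, and PPARG, at 20.1 and 22.3 FPKM, differed by 0.28 (edgeR adjusted p = 0.00215), under the limit. HIF1A RNA averaged 88.0 FPKM in MRC5_Mo and 102 in MRC5_coH196, and 38.7 in H196_Mo and 28.3 in H196_Co. The paper, which measured HIF-1α protein, saw no change of it in H196 cells grown with MRC5. A part of low oxygen in these results was not tested.

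**Figure D4:**
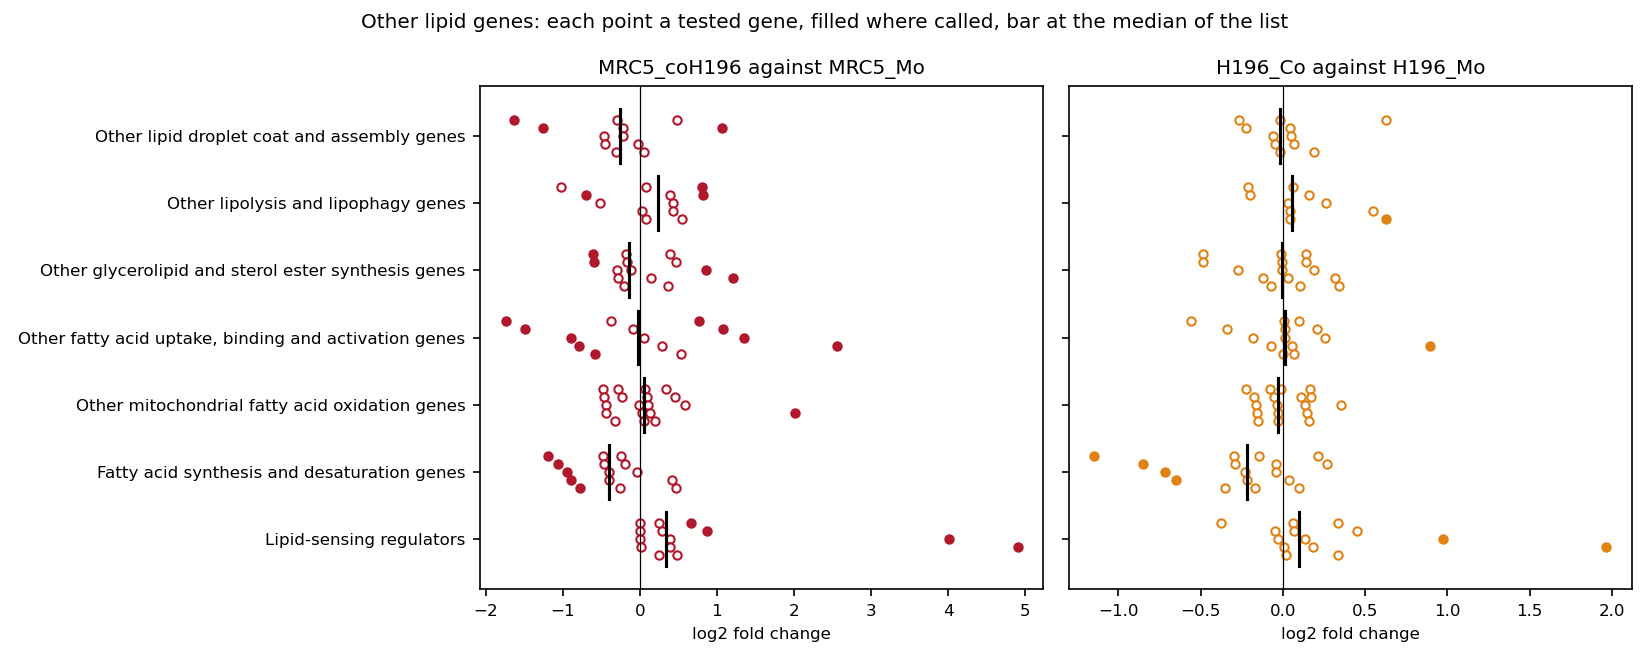
Log2 fold change of each tested gene (points) of 7 lists of lipid genes other than the members, in MRC5_coH196 against MRC5_Mo and in H196_Co against H196_Mo, filled where called and with a bar at the median of the list; the axes of the 2 panels differ. The synthesis and desaturation list has its median at -0.40 and -0.22, and the point farthest right in each panel is ANGPTL4, at 4.90 and 1.97.

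Over the 15 libraries, with log2 CPM centred within each line, the genes whose pattern was most like that of HILPDA among 9491 genes were BNIP3 (Pearson r = 0.998), ALKBH5, FAM162A, WDR45B and ENO2. BNIP3 had log2 fold changes of 2.70 in MRC5_coH196, 0.25 in MRC5_coH69 and 1.43 in H196_Co. The genes most like PLIN2 were others, AFAP1L1 (r = 0.998), ERRFI1, TGIF1, MRPS6 and KLF11, and ERRFI1 had log2 fold changes of 4.45, 0.29 and 0.33 in the same comparisons. For PNPLA2 the closest was PLPPR2, at r = 0.870. These correlations describe the libraries and share the contrast between the groups, and no p is given for them.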

How the data were processed

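RNA-seq was measured in 15 libraries of MRC5 and H196 cells, 3 for each of 5 groups. Reads were filtered by the authors in SOAPnuke, mapped to GRCh38.p13 by HISAT and matched to gene sequences by Bowtie2. The submitters' processing notes name HISAT2 2.1.0, Bowtie2 2.3.4.3 and RSEM 1.3.1, without their roles. From these the authors deposited estimated counts per gene, not normalized, and FPKM values, scaled to gene length and library total. The deposited tables also hold the authors' own fold changes, p-values and q-values from DESeq2, which were not used, and 12 (H196) and 18 (MRC5) columns of TPM and normalized counts that were not used here.

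Counts were rounded (93.7% of MRC5 and 92.1% of H196 values were whole) and fitted in edgeR 4.0.16 (R 4.3.3) with TMM factors, filterByExpr and two-sided quasi-likelihood tests, the 9 MRC5 libraries in 1 model, the 6 H196 libraries in another and all 15 for the difference between responses. A call needed a Benjamini-Hochberg adjusted p under 0.05 over all genes and an absolute log2 fold change above 0.58. The SE is the log2 fold change over the square root of F. Library totals of 16073597 to 19170560 counts set the depth, and a count of 0 allows 3 counts, for counting error alone. Ratios of FPKM were compared within tables by exact permutation. The edgeR, DESeq2 and limma fits were tested on simulated data with the same spread for all genes. Fewer genes were changed there than were called in MRC5_coH196, so that test does not show how well the fits do here. No replicates held identical values. Alternatives were DESeq2 1.42.0 (Wald test and size factors), limma 3.58.1 on log2 FPKM with a pseudocount of 1 or 0.1, filters of at least 10 counts or none, fold limits of 1 or none, only the groups compared, the replicate number as a block, and each library left out in turn.

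The members and the gene lists were chosen with earlier results of these data known. Outside the members, the genes named are the 2 largest called rises and falls of each list with a mean of at least 1 FPKM, and G0S2, LIPE, MGLL, DGAT2, ANGPTL4, VLDLR, the perilipins and the PPAR genes beside related members; LDAF1 and FASN in MRC5_coH69, SCD in MRC5_coH196, PDK4, RXRA, HIF1A and EPAS1, MGLL and G0S2 against MRC5_coH69, and the fold changes of BNIP3 and ERRFI1 were chosen after their values were seen. A gene that this rule also names is not reported here. Promoter windows are from RefSeq.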

Additional observations from a re-analysis of the deposited data

Results flagged for a closer look

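The log2 fold change with the partner differed between MRC5_coH196 and H196_Co cells for 5 of the 10 members, by the test of the difference itself in edgeR over 15 libraries. The difference, MRC5 minus H196, was 2.14 for HILPDA, 2.94 for PLIN2, 0.34 for CPT1A, 0.55 for ACSL3 and -0.61 for DGAT1, with adjusted p from 7.96e-20 for PLIN2 to 0.00106 for CPT1A. HILPDA was higher with the partner in 3 of 3 libraries of both lines, and PLIN2 likewise, so these differ in size and not in direction. ACSL3 was lower with the partner in 3 of 3 libraries of both lines, with the larger fall in H196. CPT1A and DGAT1 were past the adjusted p in MRC5 and not in H196. No group had enough libraries for a test of single outlying samples.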

How the results depend on the processing

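HILPDA and PLIN2 kept their calls in MRC5_coH196, and HILPDA, with ACSL3, in H196_Co, under every alternative that keeps the fold limit at 0.58. With no fold limit, 7 members were called in MRC5_coH196 against MRC5_Mo, 7 against MRC5_coH69 and 5 in the difference of responses, and with a limit of 1 HILPDA alone, 1 member, was called in H196_Co. A pseudocount of 1 FPKM put the HILPDA to PNPLA2 difference in MRC5_coH196 at 4.45, since it damps low values. Calls of LPIN1 near the limit and of ACSL3 and DGAT1 in the difference of responses changed with the setting. LPIN1 was called in MRC5_coH196 on log2(FPKM + 1) (-0.65) and log2(FPKM + 0.1) (-0.72). In the difference of responses ACSL3 was called with DESeq2 and with its size factors (0.60 each), where DGAT1 was not (-0.57 each), and with at least 10 counts in every library (0.58). CPT1A passed the limit against MRC5_coH69 without MRC5_coH69 replicate 2 (0.62), MRC5_coH196 replicate 2 (0.58) or replicate 3 (0.58).

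Directions turned for log2 values no farther from 0 than the 0.19 of ABHD5 in MRC5_coH196, which had passed the adjusted p. The exception was FABP3 in the difference of responses (3.08 in edgeR), which rests on 0 or 1 count in each H196 library. On log2(FPKM + 1) and log2(FPKM + 0.1), against MRC5_Mo in MRC5_coH196, PNPLA2 was -0.163 and -0.168, ABHD5 -0.00738 and -0.00811, and FABP3 -0.0723 and -0.117. Against MRC5_coH69, PLIN3 was -0.157 and -0.158 and PNPLA2 -0.144 and -0.148, and in H196_Co PLIN3 was -0.0183 and -0.0184 and PNPLA2 -0.0142 and -0.0146. Some of these turned values passed the test. Limma adjusted p against MRC5_coH69 was 0.00224 and 0.00228 for PLIN3 and 0.0259 and 0.0255 for PNPLA2. For PNPLA2 against MRC5_Mo it was 0.0137 and 0.0134. PNPLA2 against MRC5_Mo was -0.000453 with no low-count filter and -0.00293 with only the groups compared. In the difference of responses FABP3 was -0.0297 on log2(FPKM + 1), and LPIN1 was 0.0358 by DESeq2, 0.0357 with DESeq2 size factors and 0.0215 with at least 10 counts in every library. When single libraries were left out, the log2 fold change in MRC5_coH196 against MRC5_Mo ranged from -0.0311 to 0.0311 for PNPLA2 and from -0.0252 to 0.233 for FABP3. In MRC5_coH69 it ranged from -0.0678 to 0.0167 for PLIN2, -0.0417 to 0.0522 for PNPLA2, -0.000491 to 0.123 for ACSL3 and -0.11 to 0.00219 for DGAT1, and the HILPDA to PNPLA2 difference from -0.026 (without MRC5_coH69 replicate 3) to 0.21. Against MRC5_coH69 it ranged from -0.0296 to 0.0377 for PLIN3, -0.0464 to 0.0476 for PNPLA2 and -0.33 to 0.0319 for FABP3. In H196_Co it ranged from -0.00687 to 0.0924 for PLIN3 and -0.16 to 0.0390 for ABHD5, and in the difference of responses from -0.0935 to 0.0622 for LPIN1. The cause was not tested.

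Within each line, correlations of same-numbered deviations ran from -0.151 to 0.081, and those of other numbers from -0.145 to 0.196. With 3 libraries per group this cannot show whether the libraries were paired. MRC5_coH196 was not compared with H196_Co in this way. With the replicate number as a block the members called stayed at 2, 0, 2, 3 and 3 in the 5 comparisons, with 4088 genes called in MRC5_coH196 and 471 in H196_Co. Over all genes, calls in MRC5_coH196 ran from 1564 with a limit of 1 to 9522 with none, in MRC5_coH196 against MRC5_coH69 from 1353 to 9269, in MRC5_coH69 from 9 to 859 (44 in DESeq2, 18 on log2(FPKM + 1)), in H196_Co from 147 to 2538 (195 on log2(FPKM + 1)) and in the difference of responses from 1257 to 6958. Depth limits FABP3, which had at most 1 count in an H196 library.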
